A study of Sus scrofa with 64 samples.

Results

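Catecholamines are made from tyrosine in a short chain of enzymes. Tyrosine hydroxylase (TH) makes L-DOPA, DOPA decarboxylase (DDC) makes dopamine, dopamine beta-hydroxylase (DBH) makes noradrenaline and phenylethanolamine N-methyltransferase (PNMT) makes adrenaline. The probes of these 4 genes were sought on an Affymetrix porcine array by the gene symbol of the platform annotation. DDC and PNMT, 2 of the 4 genes, matched 1 probe each, out of 23935 probes other than controls and 6592 genes with a symbol of their own. TH and DBH matched no probe by symbol or by Entrez number and were not analysed here.

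The arrays held RNA of 16 tissues from 4 pigs, 1 array per tissue and animal. The tissues were grouped as adrenal gland (medulla and cortex, cut apart with a knife), brain (pineal gland, hypothalamus, olfactory bulb and the 2 parts of the hypophysis, adenohypophysis and neurohypophysis), gut (epithelium of ileum and stomach) and the 7 remaining tissues, called the reference tissues (thyroid gland, diaphragm, Biceps femoris, back fat, abdominal fat, liver and blood). The pigs were a Large White male and a Large White female of 87 days (38.8 and 36.2 kg) and an Iberian male and an Iberian female of 89 days (25.4 and 32.8 kg), fed the same diet. Each combination of breed and sex was thus a single animal, and every tissue came from the same 4 animals. Values are log2 signals after RMA, the authors' normalization, so that 1 unit is a doubling of the signal. They rank 1 probe between tissues but do not rank probes against each other, and they have no true zero. A probe was called higher or lower where its adjusted p (limma, Benjamini-Hochberg over all 23935 probes, two-sided) was under 0.05. Each SE and adjusted p rests on a single estimate of spread per probe, shared by all tissues. They do not reflect the spread within the tissue named.

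PNMT is the enzyme of adrenaline-producing chromaffin cells of the adrenal medulla, where cortisol arriving from the cortex is known from mammals in general to sustain it. DDC is less restricted. It also makes serotonin from hydroxytryptophan, so that besides catecholamine cells it is known from the pineal gland, the gut, the liver and the kidney.

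The labels of the arrays were set against marker lists. The adrenal cortex list (13 probes of 8 genes of steroid synthesis and its control) had a mean signal of 10.10 to 10.56 in the medulla arrays and 10.27 to 10.66 in the cortex arrays, and of at most 5.88 in the arrays of the other tissues. The chromaffin cell list (11 probes of 6 genes, without DDC and PNMT) was at 6.89 to 7.45 in the medulla arrays and at 5.75 to 6.80 in the cortex arrays, and it reached 6.15 in an array of another tissue. Both adrenal parts thus carried the cortex markers at similar levels. Over all tissues, 10 of the 14 marker lists were higher in every array of their own tissues than in any other array. Both adrenal parts counted as own tissues of the adrenal cortex and chromaffin cell lists. The count therefore does not check medulla against cortex. The exceptions were the chromaffin cell, glia and myelin, pineal and enteroendocrine lists. Of the 64 arrays, 53 were most correlated with an array of their own tissue. The pineal array of the male of the Large White breed was not among these 53 arrays, and neither were 5 of the 8 adrenal arrays.

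PNMT was an adrenal transcript in these pigs. Its signal in the adrenal medulla was 11.66 in the Large White male, 11.26 in the Large White female, 11.73 in the Iberian male and 10.74 in the Iberian female. In the adrenal cortex it was 9.90, 10.68, 9.09 and 8.08 in the same order of animals. Every adrenal array lay above each of the 56 other arrays, where the highest value was 6.32, in blood of the Iberian male. Of all probes, 1.12% separated the 8 adrenal arrays in this way from the 56 others. The mean of the 2 adrenal parts exceeded that of the reference tissues by 5.28 log2 units (SE 0.14, adjusted p = 1.1e-35, limma), which ranked 37 from the top among all probes. In this comparison 28.2% of all probes were called higher and 38.7% lower. The ranks of the single parts were 20 for the medulla (6.24, SE 0.19) and 66 for the cortex (4.33, SE 0.19), where 25.3% and 22.9% of all probes were called higher.

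DDC had its highest mean in the adrenal medulla as well, but shared its upper range with other organs. In the medulla it stood at 10.97 in the Large White male, 10.35 in the Large White female, 11.08 in the Iberian male and 9.85 in the Iberian female. In the cortex the values were 9.17, 9.59, 8.58 and 7.23 in that order. The lowest adrenal array, the cortex of the Iberian female, was below the highest array of another tissue, a pineal gland at 10.56, so that DDC did not separate the adrenal arrays from the rest. Against the reference tissues the adrenal mean was higher by 3.65 (SE 0.20, adjusted p = 5.9e-22, limma), at rank 114. The medulla alone was higher by 4.61 (SE 0.27) and the cortex by 2.69 (SE 0.27). The liver, a reference tissue, carried as much DDC as the pineal gland, and without it the adrenal difference was 4.33.

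**Figure D1:**
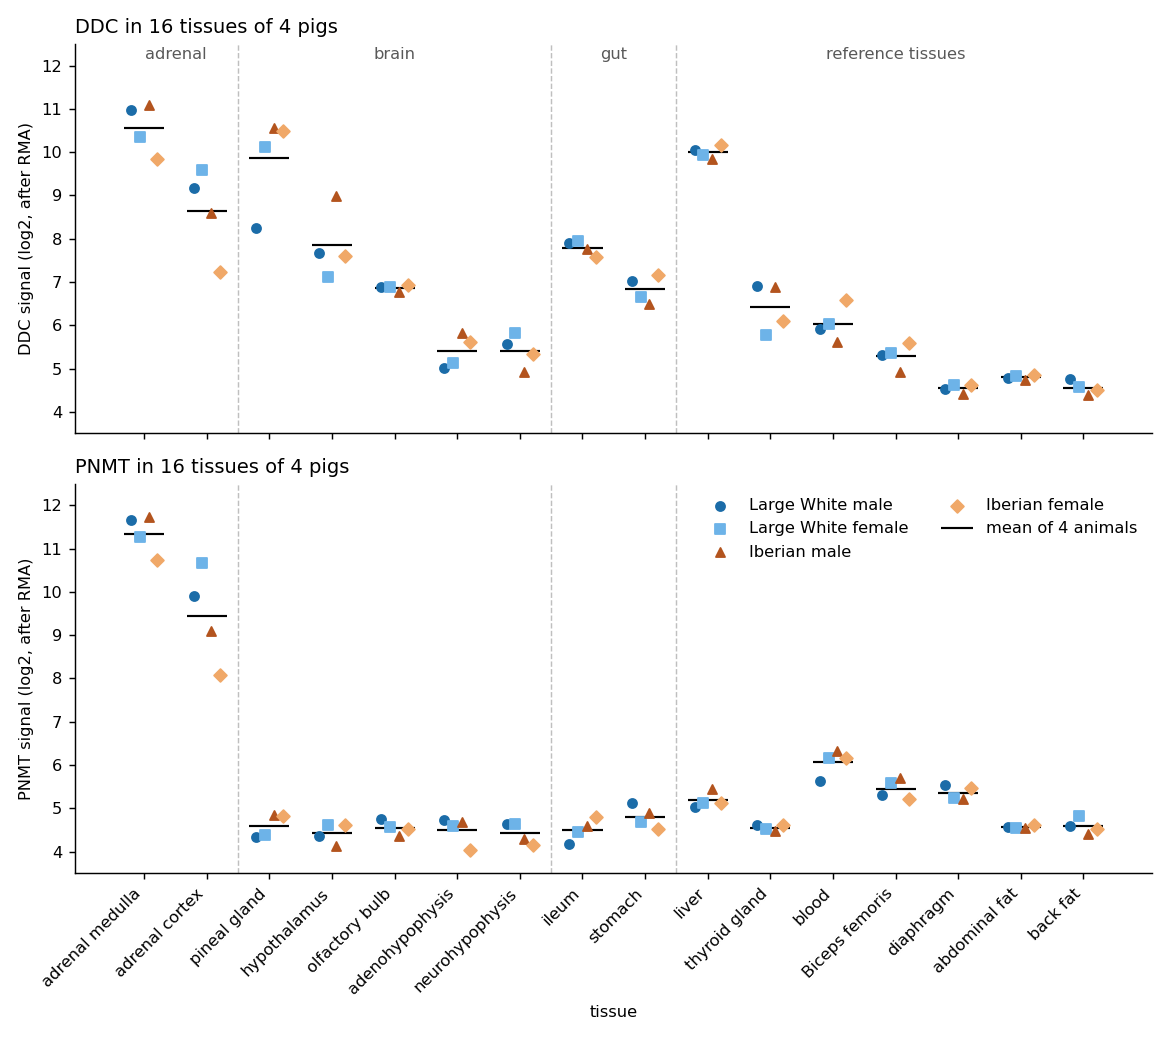
Log2 signal of DDC (upper panel) and PNMT (lower panel) in each of the 16 tissues, with 1 point per animal and a bar at the mean of the 4 animals. PNMT lies between 8.08 and 11.73 in the adrenal arrays and at or below 6.32 elsewhere, whereas DDC is also above 9.8 in all liver arrays and in 3 of the 4 pineal glands.

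The order of tissues by mean DDC was adrenal medulla (10.56 ± 0.57), liver (9.84 to 10.18, SD 0.15), pineal gland (9.86 ± 1.09), adrenal cortex (8.64 ± 1.03), hypothalamus (7.84 ± 0.80), ileum (7.79 ± 0.16), olfactory bulb (6.87 ± 0.08), stomach (6.83 ± 0.31), thyroid gland (6.42 ± 0.57) and blood (6.04 ± 0.40; SD, n = 4 animals each). The remaining 6 tissues had means of 4.55 to 5.41, with the diaphragm lowest. Neighbours in this order overlapped in their arrays, except that every ileum array was above every olfactory bulb array and every Biceps femoris array above every array of abdominal fat. The SD over animals differed widely, with the olfactory bulb at 0.08 and the pineal gland and adrenal cortex at 1.09 and 1.03.

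For PNMT the order began with the medulla (11.35 ± 0.46), the cortex (9.44 ± 1.11) and blood (6.06 ± 0.31; SD, n = 4 each), and in these first steps no array of a lower tissue reached the one above it. The closest approach was 10.74 in the medulla of the Iberian female against 10.68 in the cortex of the Large White female. Below the 2 adrenal parts, blood overlapped only Biceps femoris (5.45 ± 0.22) in range. Biceps femoris, diaphragm (5.36 ± 0.16) and liver (5.18 ± 0.18) followed, and the other 10 tissues had means between 4.43 and the 4.805 of the stomach. Over the 16 tissue means the correlation of DDC with PNMT was 0.51 (Spearman's rho 0.17), and without the adrenal parts it was -0.11 over 14 means. These are descriptions over tissues that share the same 4 animals.

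The comparison of medulla and cortex asked how the enzymes differed between the 2 samples of the gland as they were cut. The paper does not exclude contamination of 1 part by the other, because the irregular border of the medulla hindered a neat cut. The adrenal cortex list had a mean of 10.39 in the medulla arrays and 10.48 in the cortex arrays. The differences below are thus between samples that both carried cortex markers. How far medulla was mixed into the cortex samples was not tested. The medulla exceeded the cortex for both genes in all 4 pigs, and to nearly the same extent within each pig. For DDC the medulla was higher by 1.80 in the Large White male, 0.76 in the Large White female, 2.50 in the Iberian male and 2.62 in the Iberian female. For PNMT the same differences were 1.76, 0.58, 2.64 and 2.66. The smallest difference was that of the Large White female for both genes. Her medulla was not unusual, but her cortex had the highest DDC and PNMT of the 4 cortices.

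Averaged over animals, the medulla was higher by 1.92 for DDC (SE 0.36, adjusted p = 6.3e-04) and by 1.91 for PNMT (SE 0.25, adjusted p = 3.7e-06, limma), that is 3.78-fold and 3.76-fold in signal. The genes ranked 43 and 47 among all probes. Of all probes, 0.999% were called higher in the medulla and 0.00418% lower, and 8.32% were higher in the medulla of all 4 animals. DDC lost its call without the Iberian male (1.73, adjusted p = 0.075). When the 8 adrenal arrays were fitted on their own with the animal as a block, the differences were the same but the adjusted p was 0.068 for DDC and 0.074 for PNMT.

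**Figure D2:**
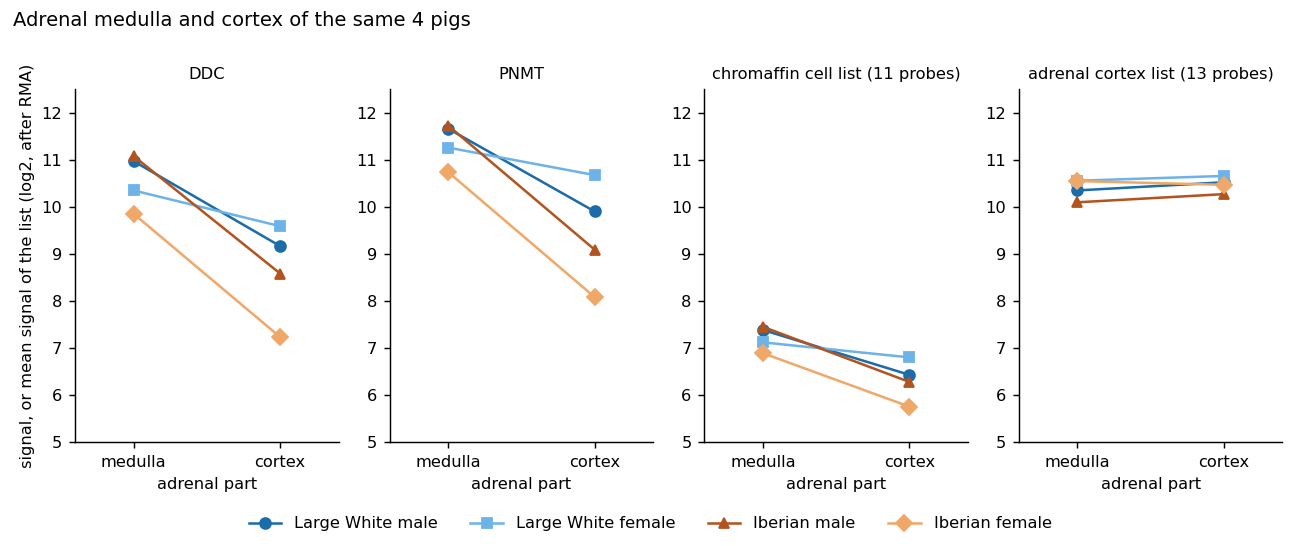
Log2 signal of DDC and PNMT and the mean signal of 2 marker lists in the adrenal medulla (left) and cortex (right) of each panel, with a line for each of the 4 pigs. The lines of DDC, PNMT and the chromaffin cell list mean all fall from medulla to cortex, with the Large White female flattest. The mean difference is 1.92 for DDC, 1.91 for PNMT and 0.90 for the chromaffin cell list. The adrenal cortex list differs by at most 0.17 within a pig.

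The 8 adrenal arrays fell in the same order for DDC, for PNMT and for the mean of the chromaffin cell list. Of its 11 probes, 7 were higher in the medulla of all 4 pigs, as were 8.32% of all probes. The 2 NPY probes of the list did not follow, with mean differences of -0.21 and 0.06. The correlation was 0.990 between the enzymes, 0.995 between DDC and the list and 0.991 between PNMT and the list, with Spearman's rho of 1.0 in each case. With the adrenal cortex list the correlation was -0.28 for DDC and -0.16 for PNMT. That list spanned only 10.10 to 10.66 in these arrays, too narrow a range for its correlations to be set against those above. These 8 arrays are pairs from 4 animals, and part of the relation is the difference between medulla and cortex itself. Within the cortex arrays alone the order was Large White female, Large White male, Iberian male and Iberian female, for both enzymes and for the list, which stood at 6.80, 6.43, 6.28 and 5.75. How much of the PNMT and DDC signal in the cortex arrays came with chromaffin cells was not tested. In tissue RNA, fewer cells of a type and less RNA per cell cannot be told apart.

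**Figure D3:**
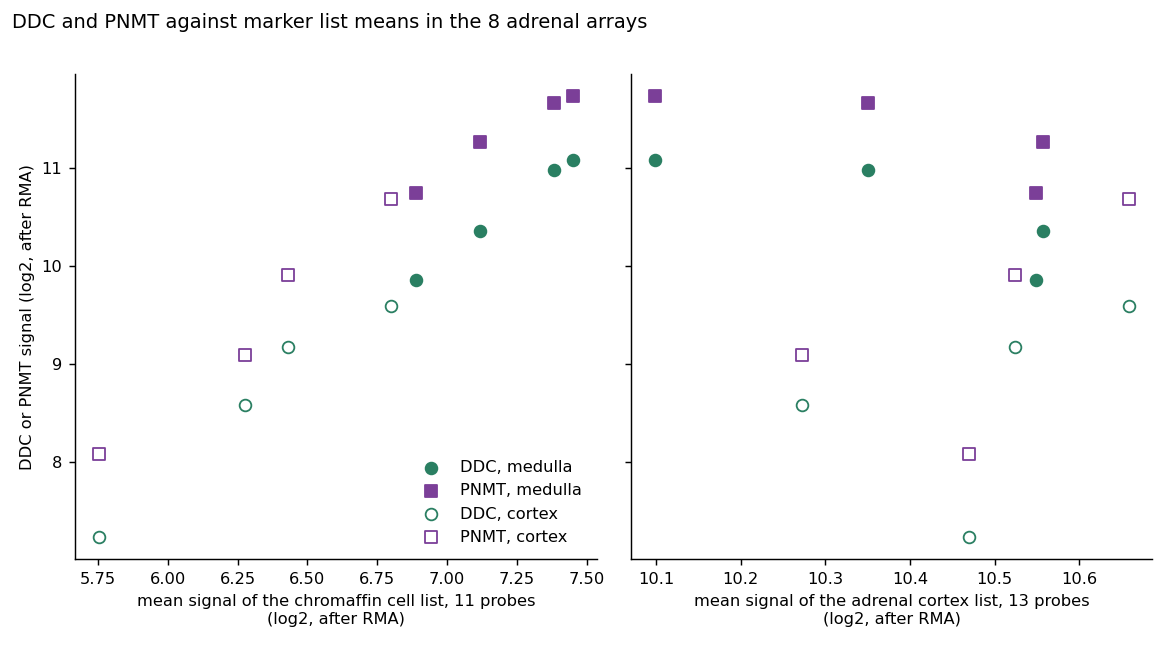
Log2 signal of DDC (circles) and PNMT (squares) in the medulla (filled) and cortex (open) arrays of 4 pigs, against the mean signal of the chromaffin cell list (left) and of the adrenal cortex list (right). For DDC and PNMT the correlations are 0.995 and 0.991 with the chromaffin cell list. They are -0.28 and -0.16 with the cortex list, which spans only 10.10 to 10.66.

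Among the genes that act with the enzymes, those of the secretory vesicle differed between medulla and cortex as DDC and PNMT did. The list for vesicle loading and storage of amines named 9 genes, of which 6 had a probe. These were CHGA, CHGB, SCG2, SCG3, SCG5 and CYB561, and none of them is a transporter that loads amines. Of the 7 probes, 5 were called higher in the medulla and 0 lower, where 0.999% and 0.00418% of all probes were called. Their median difference was 1.47, against -0.02 over all probes. Without the Iberian male 2 of the 5 calls were left (CHGA and SCG3), without the Iberian female 3 and without the Large White male 4, and over all probes the count of calls was 30 without the Iberian male, against 240 with all animals. The fit of the 8 adrenal arrays alone with the animal as a block called 0 of all probes. The granins SCG2 (secretogranin II) and SCG3 (secretogranin III) were higher by 2.0 (SE 0.37, adjusted p = 6.1e-04) and 1.95 (SE 0.29, adjusted p = 1.8e-05, limma). SCG5, a chaperone of prohormone convertase, was higher by 1.75 and CHGA, chromogranin A, by 1.47. SCG2 followed the enzymes within pigs, at 1.93 in the Large White male, 0.35 in the Large White female, 2.74 in the Iberian male and 2.97 in the Iberian female. The 2 probes of CYB561, the cytochrome that passes electrons into the vesicle for DBH, differed by 0.36 and 0.32 and were not called. CHGA, CHGB, SCG2 and CYB561, and GATA3 of the transcription factors, are also part of the chromaffin cell list, so that the lists are not separate evidence.

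Of 17 probes for sympathoadrenal transcription factors, 5 were called higher in the medulla and 0 lower (0.999% and 0.00418% over all probes), with a median of 0.64. The count was 0 without the Iberian male, 3 without the Iberian female or the Large White male, and 0 in the fit of the 8 adrenal arrays alone. GATA3, which chromaffin cells need for their differentiation in the mouse, had 4 probes. Of these, 3 were higher, by 1.78, 1.73 and 0.80, and the remaining one differed by 0.20 and was not called. Both probes of TFAP2B, a factor of neural crest derivatives, were higher, by 1.13 and 0.80. EGR1, an immediate early factor known to act on the PNMT promoter in the rat, had differences of 0.58 to 0.79 in its 3 probes, none of which was called.

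The other 5 lists of genes that act with the enzymes held no call between the adrenal parts. None of the 5 probes for synthesis and recycling of tetrahydrobiopterin, the cofactor of TH, was called (median 0.03), nor any of the 5 for amine breakdown (median -0.11), the 6 for adrenoceptors and dopamine receptors (median -0.07), the 2 for amine uptake or the 8 for glucocorticoid action (median 0.13). Among the last, the glucocorticoid receptor NR3C1 differed by -0.19 to 0.14 in 4 probes and FKBP5, which glucocorticoids induce, by 0.53 and 0.59. The 13 probes of the adrenal cortex list had 0 calls in either direction and a median of -0.10, and 0 of them differed in the same direction in all 4 pigs. Markers of neurons and glia held calls as well. In the neuron list 2 of 11 probes were called higher in the medulla and 0 lower (median 0.22), namely SNAP25 (2.06, adjusted p = 2.3e-04) and SYT1, a calcium sensor of vesicle release (1.75, adjusted p = 4.2e-04, limma). The other SYT1 probe differed by 0.69 and was not called (adjusted p = 0.50, limma). In the glia and myelin list 1 of 20 was called higher, S100B (1.15, adjusted p = 0.0071, limma), and 0 lower (median -0.05). The mean of the neuron list was 6.52 to 7.26 in the medulla arrays and 5.91 to 6.83 in the cortex arrays, and that of the glia and myelin list 4.36 to 4.53 in the medulla arrays and 4.37 to 4.46 in the cortex arrays. Without the Iberian male neither list held a call. The part of neurons and glia in the DDC and PNMT differences was not tested.

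**Figure D4:**
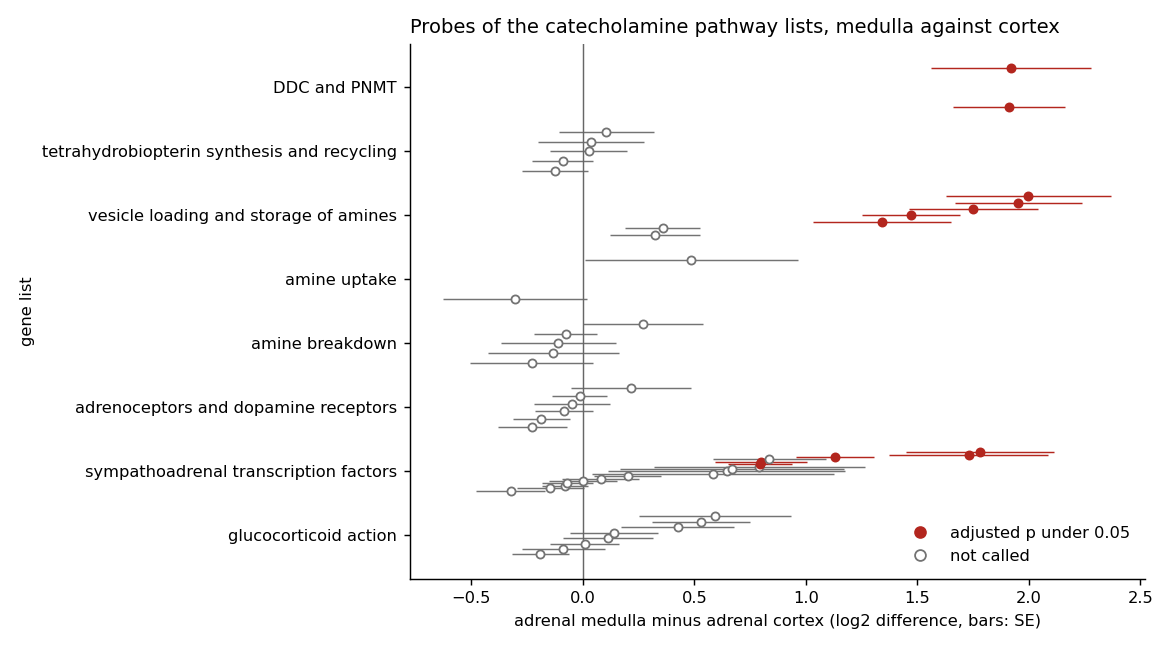
Difference of adrenal medulla minus cortex in log2 units (bars, SE) for DDC and PNMT and for each probe of 7 lists of genes that act with them, where filled points passed an adjusted p of 0.05. Calls are seen among the vesicle genes (5 of 7 probes) and the transcription factors (5 of 17) and in none of the other 5 lists plotted.

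Set against the reference tissues, the adrenal gland differed in most of these lists, as it did for most probes. Of all probes, 28.2% were called higher in this comparison and 38.7% lower. All 7 vesicle probes were higher (median 2.46, against -0.10 over all probes), with CHGB at 7.44, SCG2 at 5.30, CYB561 at 4.13 and SCG5 at 2.46 in their difference. For breakdown of amines, 4 of 5 probes were higher, among them the monoamine oxidase MAOB (3.12, SE 0.17) and the aldehyde dehydrogenase ALDH2 (2.21, SE 0.15). The remaining probe, of the sulfotransferase SULT1A3, went the other way. Its mean was 6.44 in the medulla and 6.67 in the cortex, against 8.74 in the reference tissues. HSD11B2, which inactivates cortisol, was higher by 3.83 (SE 0.11), while HSD11B1, which regenerates it, was lower (-1.32, SE 0.14). All 4 probes of NR3C1 were lower, with differences of -1.74 to -0.28. The 6 receptor probes were all lower, with a median of -0.39. For tetrahydrobiopterin, both probes of the recycling enzyme QDPR were higher, by 0.44 and 0.38, and GCHFR, the feedback regulator of its synthesis, was lower (-0.59).

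In the brain the enzymes parted. DDC was higher than in the reference tissues by 1.12 (SE 0.15, adjusted p = 2.2e-09), in a comparison with 30.9% of all probes called higher, and PNMT was lower (-0.61, SE 0.10, adjusted p = 7.9e-07, limma), with 49.2% of all probes called lower. The 20 brain arrays ran from 4.91 to 10.56 for DDC, with a median of 6.89, against 4.39 to 10.18 and a median of 5.34 in the 28 reference arrays. For PNMT they ran from 4.03 to 4.84, with a median of 4.58, against 4.40 to 6.32 and a median of 5.13. The higher DDC lay in pineal gland, hypothalamus and olfactory bulb, and was 2.24 when the brain was taken as these 3 tissues. Without the liver among the reference tissues the difference over all 5 was 1.80.

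The pineal gland, which makes melatonin from serotonin, had the most DDC of the brain tissues. Its signal was 8.24 in the Large White male, 10.13 in the Large White female, 10.56 in the Iberian male and 10.50 in the Iberian female. The difference from the reference tissues was 3.90 (SE 0.27, adjusted p = 4.2e-18, limma), where 26.0% of all probes were called higher, and 4.47 without the first of these arrays. The pineal list held 3 probes of 2 genes and reached 5.14 in an array of another tissue. The array of the Large White male also had the lowest pineal list, at 4.79 against 6.95 to 7.76 in the other 3 pigs. Its glia and myelin list was the highest, at 7.66 against 5.15 to 5.52, and its most correlated array was the hypothalamus of the same pig. The part of this in its lower DDC was not tested. The genes of serotonin and melatonin synthesis in the list (TPH1, TPH2, AANAT and ASMT) were not analysed here.

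The hypothalamus, which holds dopamine neurons, had DDC at 7.66 in the Large White male, 7.12 in the Large White female, 8.99 in the Iberian male and 7.59 in the Iberian female. It was higher than the reference tissues by 1.89 (SE 0.27, adjusted p = 3.2e-08, limma), with 24.6% of all probes called higher, and by 1.47 without the Iberian male. The olfactory bulb, where dopamine neurons lie around the glomeruli, varied least, with 6.88, 6.90, 6.76 and 6.94 in the same order of animals. It was higher than the reference tissues by 0.92 (SE 0.27, adjusted p = 0.0029, limma), with 24.4% of all probes called higher, and by 1.59 without liver among them. In each of the 4 pigs the hypothalamus was above the olfactory bulb, by 0.23 to 2.23, and the pineal gland above the hypothalamus, by 0.58 to 3.01. The ranges of hypothalamus and olfactory bulb did not overlap, while those of pineal gland and hypothalamus did. The share of all probes with such an order was not computed.

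Both parts of the hypophysis were low in DDC. The adenohypophysis ranged from 5.02 to 5.83 and the neurohypophysis from 4.91 to 5.81. Their differences from the reference tissues were -0.55 (SE 0.27, adjusted p = 0.074) and -0.54 (SE 0.27, adjusted p = 0.074, limma), neither of them called, where 34.0% and 37.9% of all probes were called lower. Without the liver among the reference tissues they were 0.12 and 0.13, again not called.

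The PNMT difference of the brain varied with the reference tissues. PNMT was called lower in 6 of the 9 tissues of adrenal gland, brain and gut, namely olfactory bulb, hypothalamus, pineal gland, adenohypophysis, neurohypophysis and ileum, by comparisons in which 40.3%, 42.5%, 38.9%, 34.0%, 37.9% and again 34.0% of all probes were called lower. The calls in 3 of the 6 were lost when an animal was left out. These were the olfactory bulb without the Iberian male (-0.48, adjusted p = 0.083), the ileum without the Large White male (-0.51, adjusted p = 0.061) and the pineal gland without the Large White male (-0.45, adjusted p = 0.092) or the Large White female (-0.43, adjusted p = 0.076, limma). Without blood among the reference tissues the olfactory bulb (-0.40, adjusted p = 0.068) and the pineal gland (-0.36, adjusted p = 0.11, limma) were not called. The 5 brain tissues had PNMT means of 4.43 to 4.60, and thyroid gland, back fat and abdominal fat had 4.55, 4.59 and 4.57. Blood, the 2 muscles and liver lay above these, at 5.18 to 6.06. Without blood among the reference tissues the brain difference was -0.45 (adjusted p = 2.3e-04, limma). No array outside the adrenal gland was near the adrenal range, and whether the low values hold any PNMT transcript cannot be told, since the file has no detection calls.

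**Figure D5:**
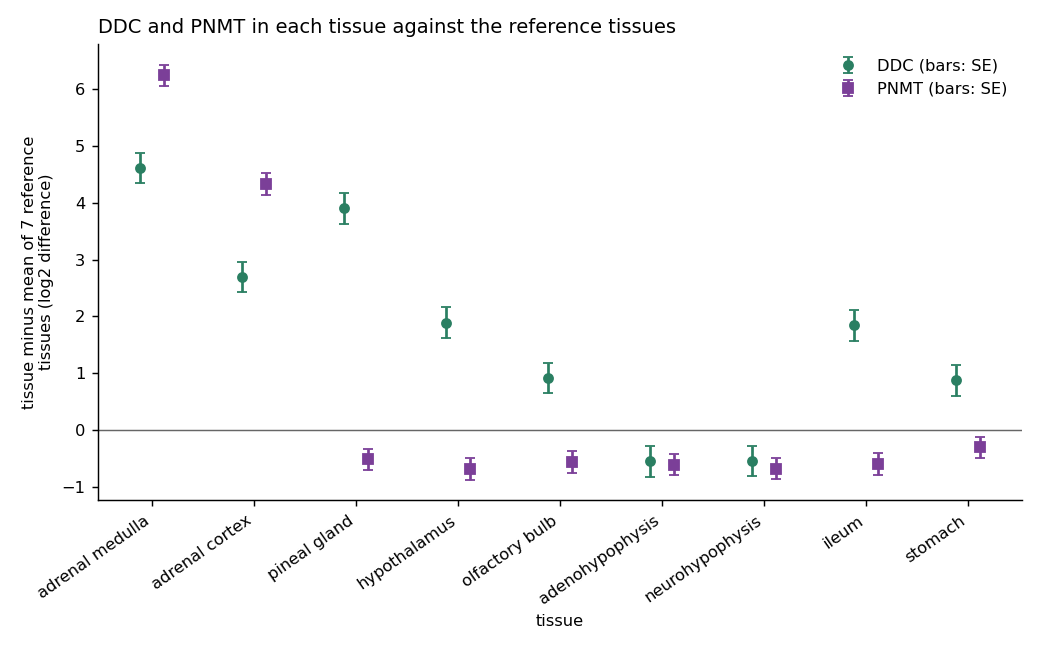
Difference of each of 9 tissues from the mean of the 7 reference tissues in log2 units for DDC and PNMT (bars, SE). The SE comes from a spread shared by all tissues. DDC is higher in 7 of the 9 tissues and PNMT only in the adrenal medulla (6.24) and cortex (4.33), while its other differences lie between -0.68 and -0.30.

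Most vesicle genes were higher in the brain. Of the 7 vesicle probes, 5 were higher and 1 lower in the brain than in the reference tissues, where 30.9% and 49.2% of all probes were called (median 3.85, against -0.13 over all probes), led by SCG2 (7.08, SE 0.15), CHGB (6.36, SE 0.13) and SCG5 (5.09, SE 0.12). The dopamine receptor DRD2 was the receptor probe that was higher, by 1.06 (SE 0.11), with the other 5 lower. The monoamine oxidases MAOB and MAOA were higher by 2.11 (SE 0.12) and 1.21 (SE 0.11). NR4A2, a factor of midbrain dopamine neurons that is also induced by activity, was higher by 1.29 (SE 0.21), and the GATA3 probes were lower, with differences of -1.84 to -0.65.

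In the gut DDC was again above and PNMT below the reference tissues. DDC was higher by 1.36 (SE 0.20, adjusted p = 1.1e-07), with 25.5% of all probes called higher, and by 2.03 without liver. PNMT was lower (-0.45, SE 0.14, adjusted p = 0.0057, limma), with 32.8% of all probes called lower, but was not called without blood (-0.29, adjusted p = 0.086). The 8 gut arrays ran from 6.49 to 7.94 for DDC, with a median of 7.36, and from 4.18 to 5.13 for PNMT, with a median of 4.64.

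Within the gut, DDC was higher in the ileum, whose enterocytes and endocrine cells are known to hold the enzyme. It was at 7.90 in the Large White male, 7.94 in the Large White female, 7.77 in the Iberian male and 7.58 in the Iberian female in the ileum, against 7.01, 6.66, 6.49 and 7.15 in the stomach. The ranges did not overlap, and the ileum was higher within each pig, by 0.88, 1.28, 1.28 and 0.43. The mean difference of 0.97 (SE 0.36) passed the test narrowly (adjusted p = 0.030, limma), in a comparison with 17.3% of all probes called higher and 18.0% lower. It lost the call without the Large White male (0.99, adjusted p = 0.058), the Large White female (0.86, adjusted p = 0.15) or the Iberian male (0.86, adjusted p = 0.12). PNMT differed by -0.30 between ileum and stomach (SE 0.25, adjusted p = 0.39), and by -0.08 without the Large White male.

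The ileum arrays varied in their enterocyte list, which stood at 8.67 in the Large White female and at 9.85 to 10.88 in the other pigs, and her DDC was the highest of the 4 ilea. The stomach of the Iberian female had the highest enteroendocrine list of the 4 stomachs (6.27, against 5.27 to 5.61) and also the highest stomach DDC. That list reached 6.01 in an array outside ileum and stomach. The share of enterocytes and endocrine cells in the DDC values was not tested. Against the reference tissues, the ileum was higher in DDC by 1.84 (SE 0.27, adjusted p = 7.9e-08) and the stomach by 0.88 (SE 0.27, adjusted p = 0.0076, limma), where 24.6% and 17.9% of all probes were called higher. Without liver these differences were 2.52 and 1.55.

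Other genes of the lists were also unequal between ileum and stomach. MAOB was higher in the ileum by 1.97 (SE 0.29), and HSD11B2, of the glucocorticoid list, by 2.55 (SE 0.20). SLC22A3, a low-affinity transporter of amines, was lower there (-2.80, SE 0.32), and CYB561 was lower in both probes (-1.74 and -0.80). Of the 7 vesicle probes, 0 were higher and 3 lower in the ileum, where 17.3% and 18.0% of all probes were called, with a median of -0.44 against -0.07 over all probes.

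The liver, which is known to hold the decarboxylase outside catecholamine cells, had as much DDC as the pineal gland and less spread. Its values were 10.06 in the Large White male, 9.93 in the Large White female, 9.84 in the Iberian male and 10.18 in the Iberian female, against 4.39 to 6.91 in the 24 arrays of the other 6 reference tissues. The difference was 4.72 (SE 0.27, adjusted p = 3.0e-21, limma), in a comparison with 18.9% of all probes called higher. PNMT in liver did not share it, at a difference of 0.09 (SE 0.19, adjusted p = 0.75). The liver was below the adrenal medulla in DDC in 3 of the 4 pigs, with differences of -0.91, -0.42 and -1.24, and above it by 0.32 in the Iberian female.

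Likeness was measured by correlation over the 16 tissue means. For PNMT it rested mainly on the 2 adrenal parts, with means of 11.35 and 9.44 against at most 6.06 elsewhere. The named genes closest to PNMT were genes of steroid synthesis or its control. They were FDXR (0.98), which passes electrons to the mitochondrial enzymes, HSD3B1 (0.98), MRAP (0.97), an accessory protein of the ACTH receptor, CYP17A1 (0.97) and CYP11A1 (0.97). Unlike PNMT, these genes did not pass the test between medulla and cortex, where their differences were 0.12, -0.04, 0.00, -0.19 and -0.08 (adjusted p = 1.0 each, limma). For DDC the closest were GARNL3 (0.89), MSMO1 (0.82) and SQLE (0.80), both of cholesterol synthesis, RDH11 (0.82), a retinol dehydrogenase, and ZNF281 (0.80). GARNL3 shared the pattern of adrenal gland, liver, pineal gland and hypothalamus, with means of 8.62 in the medulla, 9.59 in the liver, 8.87 in the pineal gland and 8.59 in the hypothalamus.

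Over the 8 adrenal arrays the neighbours were others. Those of DDC were GAL (0.998), the neuropeptide galanin, SNAP25 (0.995), a protein of vesicle fusion, DKK3 (0.995), CLU (0.995) and ALCAM (0.994). Those of PNMT were ALCAM (0.995), DKK3 (0.993), FAM162B (0.992), SNAP25 (0.991) and SCG2 (0.991). GAL was higher in the medulla than in the cortex by 2.07 and SNAP25 by 2.06 (adjusted p = 2.3e-04 each, limma). These correlations rest on 2 arrays per animal and are descriptions.

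Between breeds and sexes the comparison was of 2 animals against 2, where the exact permutation test (two-sided) cannot give a p below 0.333. In the adrenal cortex both Large White pigs were above both Iberian pigs, by 1.47 for DDC and 1.70 for PNMT on average (exact p = 0.333 each), and 19.8% of all probes were higher in the Large White cortex without overlap. In the medulla the breeds overlapped, and the medulla minus cortex difference was smaller in both Large White than in both Iberian pigs (Large White minus Iberian -1.28 for DDC and -1.48 for PNMT), where 11.6% of all probes were lower in this way. The chromaffin cell list differed in the same direction in the cortex, at 6.43 and 6.80 in the Large White pigs against 6.28 and 5.75 in the Iberian pigs, and its part in the breed difference was not tested.

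In the medulla both males were above both females, by 0.92 for DDC and 0.70 for PNMT (exact p = 0.333 each, the smallest possible), and 15.5% of all probes were higher in males there without overlap. The chromaffin cell list was at 7.38 and 7.45 in the males against 7.12 and 6.89 in the females, and its part was not tested. DDC was also higher in males without overlap in the hypothalamus (difference 0.97, with 10.5% of all probes higher) and in the thyroid gland (difference 0.97, with 13.6% of all probes higher). In the thyroid gland it stood at 6.91 and 6.89 in the males against 5.78 and 6.09 in the females.

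Over the 16 tissues, DDC was higher in the Large White pigs without overlap in 4 tissues, which were adrenal cortex, neurohypophysis, back fat and ileum, where 19.8%, 20.1%, 21.8% and 19.8% of all probes were higher in this way. It was lower in 2, the pineal gland (-1.34, with 22.9% of all probes lower) and the adenohypophysis (-0.64, with 19.1% lower). The pineal difference includes the array of the Large White male described above, and both Iberian pineal glands stood at or above 10.50. PNMT was higher in the Large White pigs in 4 tissues, which were adrenal cortex, neurohypophysis, back fat and olfactory bulb (27.0% of all probes higher in the last), and lower in 3, which were pineal gland, ileum (22.3% lower) and blood (16.2% lower). Outside the adrenal cortex these PNMT differences were between -0.48 and 0.43 log2 units, at signals of at most 6.32.

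For sex, DDC was higher in males in 3 tissues, named above, and lower in 5, which were olfactory bulb, diaphragm, Biceps femoris, abdominal fat and blood, where 13.6%, 14.1%, 12.7%, 13.8% and 17.6% of all probes were lower in males without overlap. The widest of these 5 differences was that of blood, at -0.54. PNMT was higher in males in the adrenal medulla, in the adenohypophysis (18.1% of all probes higher) and in the stomach (20.8% higher), and lower in the hypothalamus (15.0% lower). In the last 3 tissues the differences were 0.39, 0.41 and -0.37, at signals of 4.03 to 5.13. Whether such low values hold any PNMT transcript cannot be told. For breed and sex, the counts of tissues were not tested against the shares of all probes. Averaged over all 16 tissues, the 4 pigs ranged from 6.89 to 6.99 for DDC and from 5.38 to 5.62 for PNMT.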

How the data were processed

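The authors hybridised RNA of 16 tissues from 4 pigs to 64 Affymetrix arrays, made the signals with GCOS, checked the arrays with the Affy package and normalized them together by RMA with libaffy, with tool versions not given in the sources used here. As deposited, the file holds log2 signals of 24123 probe sets. They have no detection calls, and an array has no sequencing depth, so that the number of arrays, 4 per tissue, limits the precision. The 188 controls were left out, and 0 columns were without a sample. Gene names came from the platform annotation, which gives 10110 probes 1 symbol, 157 several and 13668 none.

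Tissue contrasts were fitted over all 64 arrays with limma 3.58.1 in R 4.3.3, as a model of tissue, breed and sex after the methods of the study. The fit was tested on simulated data with a single SD per probe for all tissues and no animal effect. That simulation could not test the effect of unequal spread between tissues or of pairing by animal. The other values were computed in Python 3.11.15 with pandas 2.3.3 and scipy 1.17.1. The members, lists and tests were chosen with earlier results of these data known. Named were all probes of the 4 enzymes, of each list up to 4 members with the largest difference, and the 5 genes most correlated with each enzyme over tissue means. Genes named beside these were chosen after their values were seen.

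Arrays of the same animal are paired by the design. After removal of tissue means the mean correlation of 480 such pairs was 0.189, with 385 above 0.1, against -0.0629 for 1440 pairs of different animals. The animal as a fixed or random block (consensus correlation 0.0322) was an alternative. Further alternatives left out each animal, dim probes, liver, blood or an array, centred the arrays, or used other scales and fits. No sequences or coordinates are given.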

Additional observations from a re-analysis of the deposited data

How the results depend on the processing

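Every alternative kept the direction of the adrenal, medulla, brain and gut differences of DDC and PNMT. With the animal as a replicate block, fixed or random, over all 64 arrays, no call changed (PNMT adrenal against reference tissues 5.28, adjusted p = 2.1e-35, limma). With only the 8 adrenal arrays and a replicate block, medulla against cortex was 1.91 for PNMT and 1.92 for DDC, neither called, and 0 of all probes were called, against 240 over all arrays, with 2515 at an unadjusted p under 0.05. The count was 126 without the Large White male, 305 without the Large White female, 182 without the Iberian female and 30 without the Iberian male. Leaving out each animal in turn, medulla against cortex ranged from 1.69 to 2.31 for DDC, ileum against stomach from 0.86 to 1.15, and the count of tissues with DDC called lower from 0 to 1. That count was 2 with the arrays centred on their upper probes, which moved differences from the reference tissues by -0.03 to -0.18. PNMT of the gut was -0.29 without blood (not called). DDC of the adenohypophysis and neurohypophysis turned to 0.12 and 0.13 without liver. PNMT was called lower in 6 of 9 tissues, and in 4 to 6 without an animal. The cause of these changes was not tested.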
